A study of Helicoverpa armigera with 6 samples.

Results

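Among 17082 annotated genes of the cotton bollworm *H. armigera*, 112 passed a threshold of spread between larvae injected with a control siRNA and stayed under the same threshold between larvae in which *HDAC3* was targeted. These genes were chosen by their spread within each group. The highest of the 3 siNC libraries had to exceed the lowest by at least 16 times after 1 FPKM was added to both, the ratio among the 3 siHDAC3 libraries had to stay under 16, and the mean of siHDAC3 had to be above 0. FPKM are fragments scaled to gene length and to a size set for each library. Here that size was 11829387 to 16787229 fragments for siHDAC3 and 7751255 to 9717215 for siNC, which includes a scaling between libraries. For a given gene, 1 fragment thus counted for more FPKM in siNC. The genes were then grouped by the siNC library in which they were highest. The spread within the groups is therefore given as a description and was not tested.

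The study injected siRNA into just-molted larvae of the final instar and sequenced RNA from whole insects. The siHDAC3 larvae received an siRNA against *HDAC3*, and the siNC larvae received an siRNA directed at a *C. elegans* gene. Each group had 3 libraries. How many larvae a library holds and whether libraries came from separate larvae was not found in the labels or methods, so p-values measure only the spread between these libraries. The value columns are named CK and siHA5. They were read as siNC and siHDAC3, the only groups of the series, and the names alone do not settle this. Identifiers come without gene names in the table and none of the 112 matched the reference gene table, so neither *HDAC3* nor any tissue marker was looked up, and genes are given by their identifiers.

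HDAC3 is an enzyme that removes acetyl groups from histones and acts within co-repressor complexes that bind nuclear receptors. The final larval instar is the feeding stage before pupation, when falling juvenile hormone and rising 20-hydroxyecdysone change the transcripts of gut, fat body and epidermis. RNA from a whole larva mixes these tissues. A lower value can come from fewer cells of a tissue or from less RNA per cell, which cannot be told apart here.

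The siHDAC3 libraries held 10084667 to 10811323 fragments on genes and the siNC libraries 11565408 to 12389053, worked out from FPKM and gene length. Every pair of libraries within a group differed far beyond counting noise (chi-square over its degrees of freedom 73.9 or more). The members rested on many fragments in their highest siNC library, from 38 to 52142 with a median of 805.5. In the lowest siNC library they held 0 to 2138 with a median of 15.5, and 17 members had no fragment there. A library with 0 fragments still allows up to 3, and this limit covers counting error only.

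**Figure D1:**
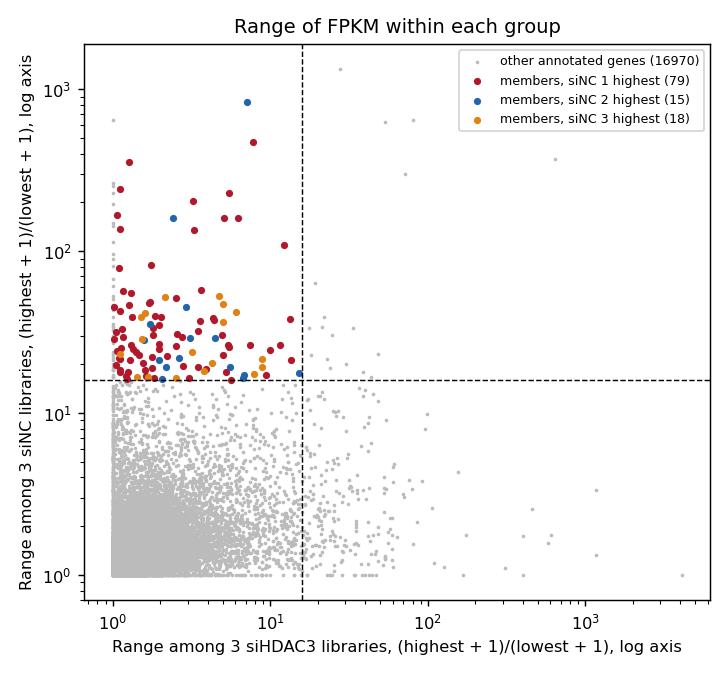
Range of FPKM among the 3 siHDAC3 libraries (x axis) and among the 3 siNC libraries (y axis), as (highest + 1)/(lowest + 1) on log axes, for the 17082 annotated genes. Dashed lines mark the threshold of 16, and the 112 members, coloured by the siNC library in which they were highest, fill the upper left field; 46 further genes in that field had no fragment in any siHDAC3 library and were left out.

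The range among the siNC libraries spanned 16.05 to 832 in the 112 genes (median 26.6). Among the siHDAC3 libraries it spanned 1.02 to 15.2 (median 2.10), so some members varied nearly as much there. HaOG214179, the closest to the threshold on this side, had a range of 15.2 in siHDAC3 and 17.8 in siNC. Of all annotated genes, 252 reached the threshold in siHDAC3 larvae and 176 in siNC larvae, and 18 reached it in both. The reverse pattern, a wide range in siHDAC3 and a range under 16 in siNC, with a siNC mean above 0, was met by 217 genes. HaOG215313 lay just inside the threshold, with a range of 16.05. It had 18.3, 2.4 and 7.67 FPKM in siHDAC3 libraries 1, 2 and 3, against 359, 21.4 and 229 FPKM in siNC libraries 1, 2 and 3. HaOG212022 lay just outside, with a range of 15.9, and had 0, 0.636 and 0 FPKM in siHDAC3 and 23.7, 0.553 and 4.11 FPKM in siNC. Both showed the same order of the siNC libraries.

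Library siNC 1 carried most of the spread. It was the highest siNC library in 79 of the 112 members (70.5%), siNC 2 in 15 and siNC 3 in 18. Among all 11093 genes that passed the filter on low values, siNC 1 was the highest in 37.4%. The low end was as uneven, since siNC 2 was the lowest library in 79 members, including 72 of the 79 that were highest in siNC 1, while it was the lowest in 36.5% of all genes that passed the filter. A tie for the lowest was counted for the library with the lower number, as in HaOG203022, with 0 FPKM in siNC 2 and siNC 3. The order siNC 1 above siNC 3 above siNC 2 held in 69 members (61.6%) and in 22.1% of the genes that passed the filter. Between siNC 2 and siNC 3 alone, only 26 of the 112 members still met the rule. Between siNC 1 and siNC 3, 32 did, and between siNC 1 and siNC 2, 89 did.

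**Figure D2:**
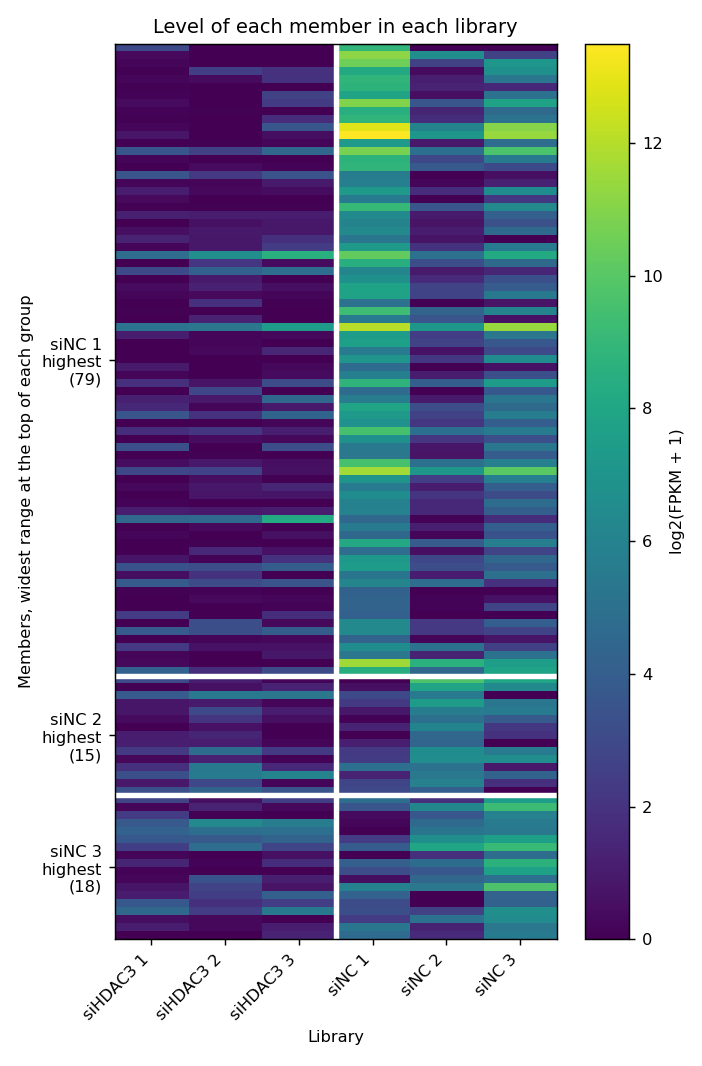
Level of each of the 112 members, as log2(FPKM + 1), in the siHDAC3 libraries (left 3 columns) and the siNC libraries (right 3 columns). White lines separate the members highest in siNC 1 (79), siNC 2 (15) and siNC 3 (18); most rows are dark in all siHDAC3 columns, and the largest group is bright in siNC 1, intermediate in siNC 3 and dim in siNC 2.

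Summed over the 112 members, siHDAC3 libraries 1, 2 and 3 held 376, 659 and 1380.5 FPKM, against 50076, 3834 and 16379 FPKM in siNC libraries 1, 2 and 3. As a share of all FPKM of a library this was 0.0852%, 0.111% and 0.278% in siHDAC3 and 4.87%, 0.476% and 1.57% in siNC. The groups did not overlap in either measure, although siNC 2 lay closer to the siHDAC3 libraries than to siNC 1. The siNC 1 sum was carried by few genes, since 5 members (HaOG207751, HaOG211277, HaOG200110, HaOG203378 and HaOG200452) made up 58.3% of it. The median member is free of this weight and had 0.318, 0.626 and 0.577 FPKM in siHDAC3 libraries 1, 2 and 3, against 55.0, 5.13 and 25.5 FPKM in siNC. Over all genes that passed the filter, the median was 6.01, 6.48 and 6.52 FPKM in siHDAC3 and 7.90, 7.22 and 7.30 FPKM in siNC. The median over these genes thus differed little between the 3 siNC libraries. Because the deposited FPKM include a scaling between libraries, this does not show that the siNC libraries were alike. The sums of all FPKM were 1028636, 804924 and 1041449 in siNC libraries 1, 2 and 3.

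Within the 79 members highest in siNC 1, the median was 0.179, 0.285 and 0.457 FPKM in siHDAC3 libraries 1, 2 and 3, against 125, 2.36 and 16.5 FPKM in siNC libraries 1, 2 and 3. Most were graded rather than present in 1 library alone. In 29 of the 79, siNC 1 was more than 10 times above each of the other siNC libraries. The widest range in this group was that of HaOG203022, on scaffold KZ149920.1 from 745622 to 747004. It had 6.75, 0 and 0 FPKM in siHDAC3 and 471, 0 and 0 FPKM in siNC. Its 1127 fragments in siNC 1 thus stood against none in siNC 2 and siNC 3 and 35 in siHDAC3 1, and it did not pass the filter. HaOG200504, on scaffold KZ149811.1 from 611855 to 613231, had 0.268, 0 and 0 FPKM in siHDAC3 and 2280.1, 96 and 5.42 FPKM in siNC. HaOG200597, on scaffold KZ149861.1 from 516560 to 518342, had 0.118, 0 and 0 FPKM in siHDAC3 and 1479, 5.1 and 136 FPKM in siNC. In both genes every siNC library lay above every siHDAC3 library, while siNC 1 stood more than 10 times above the next siNC library.

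In the 15 members highest in siNC 2, siNC 1 was the lowest siNC library in 10 and siNC 3 in 5. The median was 1.14, 3.13 and 0.470 FPKM in siHDAC3, against 1.45, 52.5 and 13.0 FPKM in siNC. The library siHDAC3 2 was the highest of its group in 11 of these 15, whereas in the 79 members highest in siNC 1 the siHDAC3 libraries 1, 2 and 3 were highest in 25, 25 and 29. The widest range of all 112 members was that of HaOG204352, on scaffold KZ149950.1 from 197186 to 199347. It had 7.21, 1.01 and 0.151 FPKM in siHDAC3 and 0, 831 and 241 FPKM in siNC, with 7404 fragments in siNC 2 and none in siNC 1. HaOG208736, on scaffold KZ150082.1 from 242822 to 249884, had 0.0409, 0.537 and 1.51 FPKM in siHDAC3 and 0.466, 235 and 82.6 FPKM in siNC. In both, siNC 1 was at or near 0, as were most siHDAC3 libraries, whereas siNC 1 was the high library in the main group. HaOG207419, on scaffold KZ150037.1 from 384688 to 384953, behaved otherwise. It had 13.9, 42.6 and 40.3 FPKM in siHDAC3 and 6.79, 44.1 and 0 FPKM in siNC, so the siHDAC3 libraries lay inside the siNC range. At 266 bases it is among the 21 members shorter than 400 bases (18.8%, against 7.41% of the genes that passed the filter).

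In the 18 members highest in siNC 3, the median was 1.34, 1.95 and 1.98 FPKM in siHDAC3, against 8.25, 16.3 and 75.3 FPKM in siNC. HaOG213981, on scaffold KZ149855.1 from 826958 to 827329, had 5.92, 0.454 and 4.65 FPKM in siHDAC3 and 28.1, 2.49 and 182 FPKM in siNC. HaOG213862, on scaffold KZ149854.1 from 865089 to 866557, had 0.125, 1.42 and 0.218 FPKM in siHDAC3 and 10.6, 73 and 605 FPKM in siNC. HaOG200265, on scaffold KZ149930.1 from 606201 to 612591, had 4.03, 0.0545 and 0 FPKM in siHDAC3 and 0.333, 11.5 and 62.1 FPKM in siNC. In HaOG213862 the groups did not overlap, and in the other two at least siHDAC3 1 lay above the lowest siNC library. The ranges in this group reached 52.6 at most, less than the widest in the other groups.

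**Figure D3:**
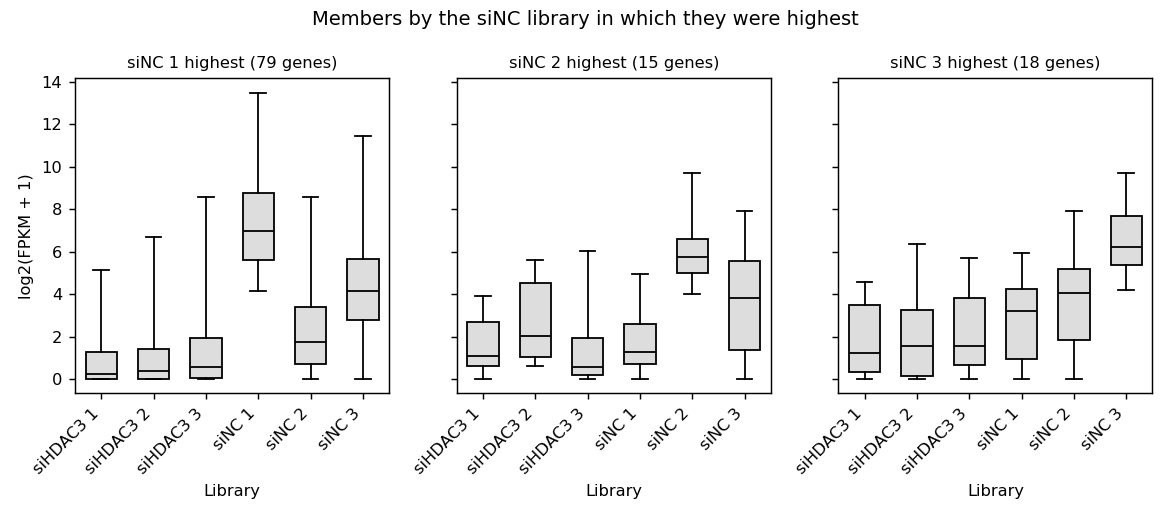
Levels of the members, as log2(FPKM + 1), in each library, with siHDAC3 libraries left of siNC libraries, in 3 panels by the siNC library in which the members were highest (79, 15 and 18 genes). Boxes span the quartiles, the line is the median and whiskers reach the lowest and highest gene; the siHDAC3 medians were at most 3.13 FPKM in every panel.

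The position of the siHDAC3 libraries relative to the siNC range was not fixed by the rule. In 53 of the 112 members every siHDAC3 library was below every siNC library, all of them among the 106 members with levels above the filter (50.0%), against 21.6% of all genes above it. In none was every siHDAC3 library above, where all genes gave 16.5%. Of the 53, 23 had passed the filter through siNC libraries alone, so their siHDAC3 libraries had to be below. Among genes that reached 0.5 FPKM in a siHDAC3 library, 30 of 83 members (36.1%) and 18.4% of all 10650 genes lay below. In 22 members all siHDAC3 libraries lay within the siNC range, and in the other 37 some lay within it and some outside. In 91 of all 112 members (81.25%) every siHDAC3 library was below the middle siNC library, against 33.9% of all genes that passed the filter. The 23 members that passed the filter through siNC libraries alone had to be among the 91. For genes that reached 0.5 FPKM in a siHDAC3 library this count was not made, so the contrast is a description. All siHDAC3 libraries were under 1 FPKM in 41 of the 112 members, against 7045 of the 17082 annotated genes and 981 of the 11093 genes above the filter. The 41 are thus a smaller share than among the annotated genes and a larger one than among the genes above the filter, and they include members below the filter. Since the members have at least 1 high siNC library by choice, part of their low siHDAC3 position relative to siNC follows from the rule. No test was made of it. Leaving out a library can only raise the count of 53, and gave 65 without siNC 1, 77 without siNC 2 and 55 without siNC 3.

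The fit of siHDAC3 against siNC covered all 11093 genes that reached 0.5 FPKM in 3 or more of the 6 libraries, on log2(FPKM + 1) with limma and Benjamini-Hochberg adjustment. Of the 112 members, 106 passed this filter, 23 of them through siNC libraries alone. At an adjusted p under 0.05, 24 members were lower in siHDAC3 (22.6% of the 106) and 0 higher, while 11.1% of all tested genes were called lower and 4.04% higher. Of the 24, 12 had passed the filter through siNC libraries alone, where they had to be higher. Among genes that reached 0.5 FPKM in at least 1 siHDAC3 library, 12 of 83 members (14.5%) and 922 of all 10650 genes (8.66%) were called lower. The siNC side of these values was chosen by the rule, so neither share nor the changes below are support for a direction. At an unadjusted p under 0.05, 58 members were lower and 1 was higher. With libraries scaled to equal FPKM sums, 921 of all tested genes were lower and 2881 higher, and 38 members were lower and 1 higher. The log2 change was below 0 in 97 of the 106, with a median of -3.49, against -0.02 over all tested genes. The standard errors were wide by choice of the genes, with a median of 1.23 against 0.35 over all tested genes. The number of calls depended on single libraries. It was 6, 7 and 5 without siHDAC3 1, 2 and 3, and 29, 51 and 11 without siNC 1, 2 and 3. Without siNC 1, 2 members were called higher. Limma voom on the recovered fragments called 0 members in either direction, with 16 lower and 0 higher at an unadjusted p under 0.05.

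By highest library, 18 of 73 tested members of the siNC 1 group were called lower, 1 of 15 of the siNC 2 group and 5 of 18 of the siNC 3 group. Over all tested genes, 11.1% were called lower. In the siNC 1, 2 and 3 groups, 21, 0 and 2 of the tested members had passed the filter through siNC libraries alone, which fixed their direction. Whether the shares of the 3 groups differ was not tested. The largest fall was that of HaOG207751, on scaffold KZ149823.1 from 41345 to 42847. It had 0.756, 0 and 0.44 FPKM in siHDAC3 and 11530.3, 139.8 and 2712 FPKM in siNC, or 4, 0 and 2 fragments against 28153, 428 and 6922. Its mean was 0.399 ± 0.38 FPKM in siHDAC3 and 4794 ± 5974 FPKM in siNC (SD, n = 3 each), and it fell with a log2 change of -10.23 at a standard error of 1.48 (limma adjusted p = 0.00703). The next was HaOG200452, on scaffold KZ150104.1 from 25594 to 26670, with 0.234, 0 and 0 FPKM in siHDAC3 and 3003, 385 and 184 FPKM in siNC. It passed the filter through siNC libraries alone, and fell with a log2 change of -9.13 at a standard error of 0.96 (limma adjusted p = 0.00228). Both genes were near or at 0 in siHDAC3 while the siNC libraries had a range of 81.9 and 16.2, and both were lower in every siHDAC3 library than in every siNC library. Over the alternatives the adjusted p from limma was between 0.00104 and 0.192 for HaOG207751 and between 0.000841 and 0.0789 for HaOG200452, with the highest from voom for both. With 3 libraries a group, the smallest p of an exact permutation test is 0.1.

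The fits of the widest members moved with the library that set their spread. HaOG204352 changed by -4.46 on the log2 scale with a standard error of 2.43 (limma adjusted p = 0.264), and HaOG208736 by -4.27 with a standard error of 1.78 (limma adjusted p = 0.160). Without siNC 1, in which both were near 0, the changes were -7.39 and -6.46 and the adjusted p from limma was 0.011 for HaOG204352 and 0.00393 for HaOG208736. HaOG200504 and HaOG200597 changed by -6.70 and -6.69 and were not called, with adjusted p of 0.0638 and 0.0531 from limma. HaOG213862 changed by -5.75 (standard error 1.33) and was called at an adjusted p of 0.0346 from limma. It lost the call without siHDAC3 1, 2 or 3 and without siNC 2, where the adjusted p from limma was 0.0799, 0.0612, 0.107 and 0.083. It also lost it with no filter on low values and with voom, at adjusted p of 0.0565 and 0.201 from limma.

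In 19 of the 112 members (17.0%) the siHDAC3 mean was at least 10 FPKM. This is a smaller share than the 4501 of the 17082 annotated genes or the 4630 of the 11093 genes that passed the filter. In 5 members, among them HaOG213214 and HaOG206765, at least 1 siHDAC3 library exceeded every siNC library, against 5654 of the 11093 genes that passed the filter. The rule asks for a high siNC library, so this contrast is a description. The genes named here were singled out after their values were seen. HaOG213214, on scaffold KZ150306.1 from 58494 to 60660, had 21, 23.4 and 298 FPKM in siHDAC3 and 22.6, 0.107 and 2.43 FPKM in siNC. It had the largest positive log2 change of the members, 3.60 (standard error 1.41), and was not called (adjusted p = 0.137 from limma). HaOG206765, on scaffold KZ150011.1 from 180065 to 195703, had 12.7, 82 and 50.5 FPKM in siHDAC3 and 0.126, 23.1 and 46.7 FPKM in siNC, so siNC 1 alone was low. HaOG207961, on scaffold KZ150055.1 from 31005 to 32592, showed the same form, with 17.9, 28.4 and 29.5 FPKM in siHDAC3 and 0, 37.5 and 40.6 FPKM in siNC, and 0 fragments in siNC 1. HaOG204615, on scaffold KZ149814.1 from 2006837 to 2009262, had the highest siHDAC3 mean, with 27.6, 101 and 382 FPKM in siHDAC3 and 1223, 31.2 and 300.3 FPKM in siNC. Its groups overlapped and both were spread widely.

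A feature that the rule did not use is the identifier. The table numbers annotated genes from HaOG200001, and after HaOG201101 the numbers break off until HaOG201201. This first block holds 1016 genes, 5.95% of the annotated genes, and its gene lengths are multiples of 3 in 99.8% of cases, against 62.2% outside it. They are called coding lengths here for that reason, without an annotation to check it. The block held 35 of the 112 members (31.2%). Among genes that passed the filter, 34 of 373 block genes (9.12%) were members, against 72 of 10053 other annotated genes (0.716%). In the block, 27 of 35 members (77.1%) were highest in siNC 1, as were 56.8% of the 373 block genes that passed the filter. Their coding lengths had a median of 1551 and a maximum of 1677 bases, close to the median of 1530.0 bases over the 373 block genes that passed the filter. The block members had a median of 0.271, 0.212 and 0.457 FPKM in siHDAC3, against 152, 6.59 and 38.0 FPKM in siNC. Every siHDAC3 library was below every siNC library in 23 of the 34 members above the filter (67.6%), and in 51.2% of the 373 block genes above it. Of these 23 members, 10 had passed the filter through siNC libraries alone, which fixed their place. How many of the 373 did so was not counted, so the contrast is a description. Which protein families the block holds was not looked up here. The block was chosen after the members had been seen.

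Some members stood side by side. Although the 112 members lay on 85 scaffolds, 23 had another member within 20 kilobases on the same scaffold, in 8 groups, and 9 were direct neighbours of another member in gene order. Being next to a member applied to 8.04% of the members and to 1.10% of the genes that passed the filter. The groups with at least 4 members were 3, on scaffolds KZ149798.1, KZ149831.1 and KZ149869.1. In each, all annotated genes lay on the plus strand. The handling of reads that match several similar genes was not found in the labels or methods, nor was the use of strand, so levels of single genes within such a row are uncertain.

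The longest run of members in gene order was HaOG200091, HaOG200087 and HaOG200097 on scaffold KZ149831.1, from 307688 to 317707. All are 1569 bases long. HaOG200091 had 0.19, 0.323 and 2.87 FPKM in siHDAC3 and 446, 1.18 and 38.9 FPKM in siNC. HaOG200087 had 0.304, 0 and 4.1 FPKM in siHDAC3 and 1949, 11.2 and 219 FPKM in siNC. HaOG200097 had 0.038, 0 and 2.29 FPKM in siHDAC3 and 454, 2.36 and 34.5 FPKM in siNC. In all of them siNC 1 was far above siNC 3, siNC 2 was the lowest of siNC, and siHDAC3 3 was the highest of siHDAC3. None was called, with log2 changes of -4.21, -6.53 and -4.65 and adjusted p of 0.167, 0.0533 and 0.113 from limma. Upstream in the same row lie HaOG200093, a member with 1.29, 0.914 and 21.1 FPKM in siHDAC3 and 50.8, 0.982 and 38 FPKM in siNC, and HaOG200092, which was not a member. HaOG200092 had 3.56, 5.38 and 137 FPKM in siHDAC3 and 160.0, 7 and 63.4 FPKM in siNC, and missed the rule because siHDAC3 3 was high.

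On scaffold KZ149798.1, 9 genes of 1647 to 1677 bases follow each other from 3572881 to 3614835, and 5 of them were members. Of the other 4, HaOG200192 was the most abundant gene of the row. It had 25.7, 58.5 and 115 FPKM in siHDAC3 and 1179, 108 and 445 FPKM in siNC, a narrower range at a higher level. HaOG200195, the member with the widest range there, had 0.107, 0.0508 and 0 FPKM in siHDAC3 and 355, 1.61 and 24.5 FPKM in siNC. Summed over the 9 genes, the row held 31.7, 65.1 and 131 FPKM in siHDAC3, against 2641, 152 and 799.8 FPKM in siNC. All 9 genes were highest in siNC 1, and 8 followed the order siNC 1, siNC 3, siNC 2, with HaOG200190 at 0.47 FPKM or less in every library as the exception.

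On scaffold KZ149869.1, 7 genes between 545327 and 564863 included 4 members, HaOG215354, HaOG215356, HaOG215359 and HaOG215360, outside the first identifier block. Summed over the 7, the row held 0.0514, 1.02 and 0.615 FPKM in siHDAC3, against 833, 19.3 and 149.5 FPKM in siNC. HaOG215360 had 0.0514, 0.073 and 0.0598 FPKM in siHDAC3, or 1 fragment in each library, and 529, 10.8 and 80.1 FPKM in siNC. All 7 were highest in siNC 1. Of the 3 genes that were not members, HaOG215358 had no siHDAC3 fragment and the other two had a siNC range under 16. Across the 3 rows, 20 of 21 annotated genes followed the order siNC 1, siNC 3, siNC 2, members and others alike. These rows were found through their members, so the count is a description.

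**Figure D4:**
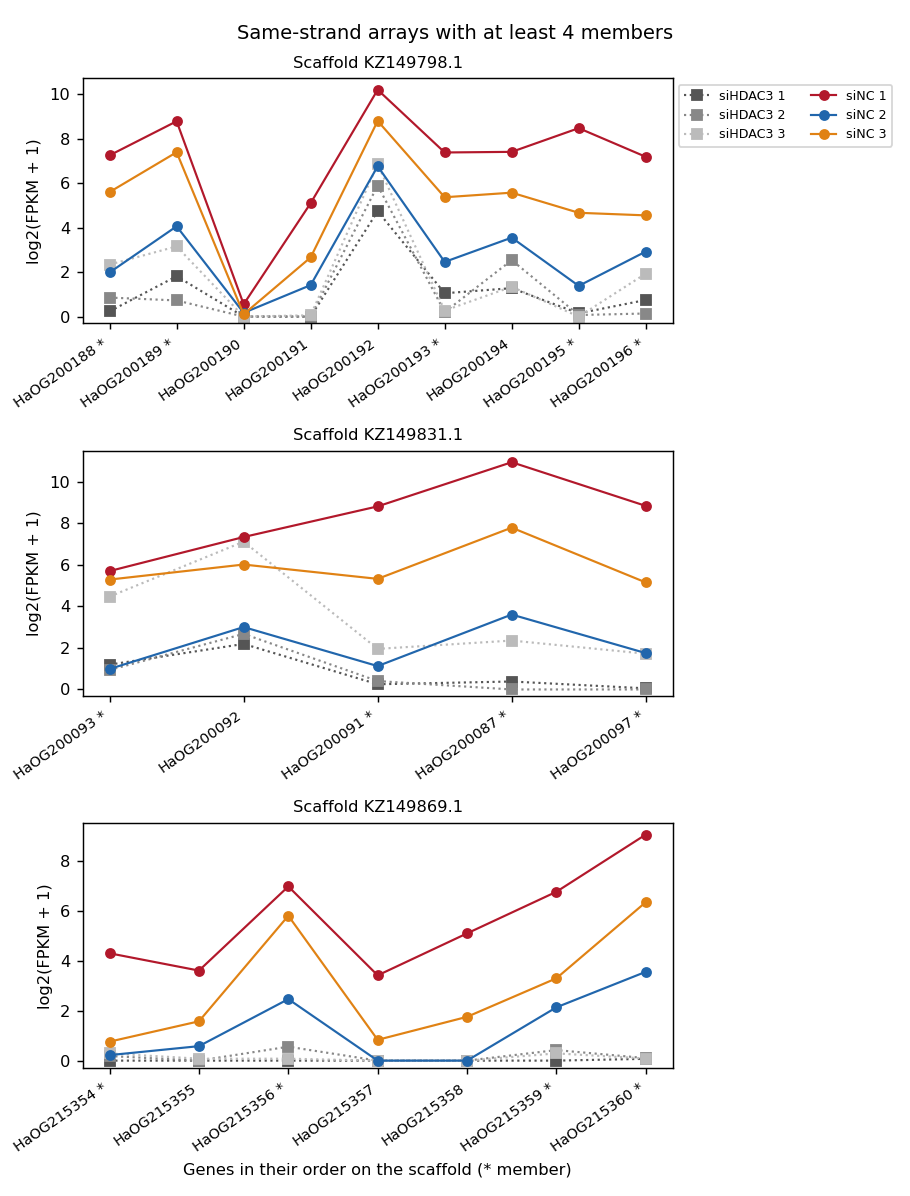
Levels, as log2(FPKM + 1), of the annotated genes in 3 same-strand rows that hold at least 4 members, in their order on the scaffold; members carry an asterisk. Grey squares with dotted lines are siHDAC3 libraries and coloured circles siNC libraries; siNC 1 lies above siNC 3 and siNC 3 above siNC 2 in 20 of the 21 genes.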

How the data were processed

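RNA of whole larvae was sequenced in 3 siHDAC3 and 3 siNC libraries. The authors deposited FPKM values per gene and library, with gene length and position, for 18203 genes, of which 1121 lie outside the annotation. Per the labels, the processing notes name Bowtie 0.12.2 and the mouse builds mm8 and mm9, which cannot apply to the moth scaffolds of the table. Counter, build and strand setting: not given in the sources used here. Coordinates are those of the table. The paper and the labels name different library kits.

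Columns were assigned by name, with replicate numbers from the column names, and no value column was left over. Multiplied by gene length, 100.0% of FPKM above 0 came within 0.1 fragments of a whole multiple of a step that is fixed in each library. This gave the fragments per gene and a divisor per library of 11829387 to 16787229 fragments for siHDAC3 and 7751255 to 9717215 for siNC, so the deposited FPKM include a scaling between libraries.

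Genes reaching 0.5 FPKM in 3 or more libraries were tested on log2(FPKM + 1) with limma 3.58.1 (R 4.3.3), trended variance and p-values adjusted by Benjamini-Hochberg over the whole table. The procedure was tested on simulated data. Fold changes on this scale understate changes of low genes. Alternatives were other pseudocounts (0.1 and 0.5), filters, scalings, thresholds, a replicate block, each library left out and limma voom on fragments. Named genes were the 3 with the widest range in each group, the 2 largest called changes in each direction (none rose), the longest run of neighbours and the genes nearest the threshold. Genes named beyond this were singled out afterwards. The members, lists and tests were chosen with earlier results of these data known. No sequences are printed because none were at hand for these identifiers.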

Additional observations from a re-analysis of the deposited data

How the results depend on the processing

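The number of genes that meet the rule depends on its settings. With 0.1 added in place of 1 it was 392, of which 88 were among the 112, and 198, 102 and 92 were highest in siNC 1, 2 and 3. With 0.5 added, 26 were highest in siNC 2 and 31 in siNC 3. A threshold of 8 in both groups gave 260 and one of 32 gave 49. With 1 library left out it was between 26 (without siNC 1) and 118, with 32 without siNC 2. Scaling libraries to equal sums gave 85 genes, 60 of them highest in siNC 1 and 10 in siNC 3. This scaling puts the median log2 change over the tested genes at 0.68, in place of -0.02. Taking all genes that ranged widely among siNC, whatever their siHDAC3 values, gave 132 highest in siNC 1 and 28 in siNC 3, an alternative chosen after seeing the data, as was leaving out libraries for the next count. Members with all siHDAC3 libraries below every siNC library were between 54 and 77 with 1 library left out. With sum scaling, 2 members lay entirely above. Direct neighbours were 9, or 14 in the order of tested genes only.

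In limma, 24 members were called lower. This became 37 with a pseudocount of 0.1, 10 without a filter, 38 with sum scaling, 0 with voom and between 5 and 51 with 1 library left out. The count of 0 called higher became 1 with sum scaling and between 0 and 2 with 1 library left out. Over all genes, 448 were higher and 1232 lower. With sum scaling 2881 were higher and 921 lower, which moves the share of higher calls to 75.8% from 26.7%. With 1 library left out, 125 to 418 were higher and 663 to 1089 lower. Deviations of same-numbered libraries correlated at -0.0752, 0.0705 and -0.0108 across genes, and those of differently numbered libraries at -0.166 to 0.163. These values do not settle whether the replicate numbers pair the libraries. With the replicate number as a block, 177 genes were higher and 853 lower, and 23 members were lower, 18 of them among the 24. None of the 14 tested members named by the rule changed the direction of its log2 change under the 14 alternatives run for them, and a call was lost in 8 cases and gained in 18. The cause of the differences between settings was not tested.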

Other observations

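Genes close to the rule showed related patterns. In 46 annotated genes the siNC libraries ranged over at least 16 times while no siHDAC3 library held a fragment, and siNC 1 was the highest siNC library in 41 of them. In the 18 genes that ranged widely in both groups, siNC 1 was the highest in 12 and siNC 3 in 6. Together with the 112 members, siNC 1 was thus the highest in 132 of the 176 genes that ranged widely among siNC libraries.

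Of the 1121 transcripts outside the annotation, 7 met the same rule. They were highest in siNC 1 in 3 cases, in siNC 2 in 2 and in siNC 3 in 2. One, on scaffold KZ149901.1 from 802809 to 812360, had 286, 920.2 and 126 FPKM in siHDAC3 and 0, 522 and 87.7 FPKM in siNC, so siNC 1 alone lacked it. Another, on scaffold KZ150030.1 from 26128 to 27582, had 0.141, 0 and 0 FPKM in siHDAC3 and 1612, 30.3 and 15.5 FPKM in siNC, so siNC 1 alone stood far above the rest. No explanation of these values was tested.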
